A study of Caenorhabditis elegans with 30 samples.

Results

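The levels of 9 genes that act in primordial germ cells or in P granules were followed through starvation arrest. Their public names are nos-1, nos-2, pgl-1, pgl-3, glh-1, glh-2, glh-4, deps-1 and xnd-1. They were found by matching the WormBase identifier of each row of the count table to these names, which gave 9 of the 46911 worm genes in the table. The libraries came from the nematode Caenorhabditis elegans. Larvae hatched into S-basal, which holds no food, at 20 degrees, and in this state they stop at the first larval stage (L1). One strain was the wild-type strain N2. The other, called irld here, was LRB444, which carries allele duk1 of irld-39 together with allele duk17 of irld-52, both genes of the receptor L-domain family. Each strain was sampled after 6, 12, 24, 48 and 72 h in arrest. Counted from bleaching these times are 18, 24, 36, 60 and 84 h. There were 3 biological replicates in each of the 10 groups and 30 libraries in all. Each library was made from a large pool of whole larvae, and the mutant strain is 1 line, which limits what a difference between the strains can be assigned to.

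A newly hatched worm carries a single pair of primordial germ cells, Z2 and Z3, which do not divide until the larva feeds. P granules are condensates of RNA and protein that gather on the outer face of germ cell nuclei and take part in the handling of germline transcripts. The PGL proteins are their scaffold, and the GLH proteins are RNA helicases related to Vasa of Drosophila. DEPS-1 is a P-granule protein needed for normal granule assembly. The Nanos-family proteins NOS-1 and NOS-2 bind RNA and are needed for the survival and quiescence of primordial germ cells, nos-2 largely as maternal RNA and nos-1 as RNA made in the primordial germ cells. XND-1 is a germline chromatin factor that sets the distribution of meiotic crossovers and also acts early in germ cell fate.

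A library had 7563687 to 19815884 reads on worm genes (median 9650171). All 9 genes were among the 15508 that passed the filter on low counts, but several were counted only a few times. The median count per library was 13 for nos-1 (range 5 to 28), 20.5 for nos-2 (2 to 66), 22.5 for xnd-1 (2 to 49), 23 for pgl-3 (2 to 51) and 40.5 for glh-2 (10 to 65). It was 56.5 for deps-1 (26 to 129), 98.5 for pgl-1 (29 to 163), 131.5 for glh-4 (49 to 430) and 209.5 for glh-1 (51 to 573). The larvae are whole animals in which germ cells are a small minority, and levels are relative to all RNA. A lower level can stand for less RNA per germ cell or a smaller share of germ cells in the RNA. It can also stand for a change in RNA of other cells or left from the embryo. These cannot be told apart here. Markers of the L1 body (muscle, pharynx, intestine, neurons and hypodermis) were detected for 14 of 14 genes, with a summed level of 12391 to 27909 CPM (a gene's reads relative to the library's reads on worm genes, scaled by the TMM method of edgeR). Of 12 markers of the adult germ line, sperm, oocytes and yolk (vit-2, vit-5 and vit-6), 7 passed the filter and 6 had a median above 1 CPM, with a summed level of 15.8 to 71.1 CPM. Of the yolk genes, vit-2 and vit-6 passed the filter. In this list the sperm genes were near 0, with spe-38 at 0 counts in 22 of 30 libraries and spe-11 in 13. All 12 markers of early embryos and maternal RNA were present in every library, with a summed level of 108 to 362 CPM.

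Compared per kilobase of exon, glh-1 had the highest mean level of the 9 genes, at 8.18 ± 3.10 CPM per kb (SD over the 30 libraries), above 54.3% of the tested genes. Next came glh-4 at 4.30 ± 2.00 and pgl-1 at 3.91 ± 1.44, then deps-1 at 2.82 ± 0.583 and nos-2 at 2.06 ± 1.48 CPM per kb. The lowest were glh-2 at 1.21 ± 0.438, nos-1 at 1.09 ± 0.429, pgl-3 at 1.00 ± 0.420 and xnd-1 at 0.962 ± 0.366 CPM per kb, the last of these above 12.9% of the tested genes. Only the step from glh-1 to glh-4 was larger than the SD of both neighbours. Every other step between neighbours in this order was smaller than the larger of their SDs. Genes farther apart in the order did separate: the lowest libraries of glh-4 and deps-1, at 1.83 and 1.78 CPM per kb, lay above the highest of pgl-3, at 1.69 CPM per kb.

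Over 72 h of arrest the level of glh-1 fell in both strains. For glh-4 the test over all times was called in both strains, and its group mean was highest at 12 h. Its difference between 12 and 6 h was not called, and 12 h was not tested against later times. The other 7 genes showed no change that passed the test. Changes were tested with edgeR's quasi-likelihood F-test over all tested genes with Benjamini-Hochberg adjustment, and called at an adjusted p under 0.05. In N2 the test of any change over the 5 times called 2 of 9 genes, glh-1 and glh-4, where it called 49.6% of all tested genes. In irld it called the same 2 of 9, where it called 43.1% of all tested genes. Against 6 h, N2 had 0 of 9 called at 12 h, 0 at 24 h, 1 at 48 h and 1 at 72 h, where 6.21%, 34.2%, 45.6% and 51.1% of all tested genes were called. In irld the counts were 0, 0, 2 and 1 of 9, where 4.34%, 30.6%, 42% and 46.6% of all tested genes were called. Every call among the 9 genes was a fall. The median log2 difference of the 9 genes between 72 h and 6 h was 0.24 in N2 and -0.43 in irld, beside -0.11 and -0.13 over all tested genes.

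**Figure D1:**
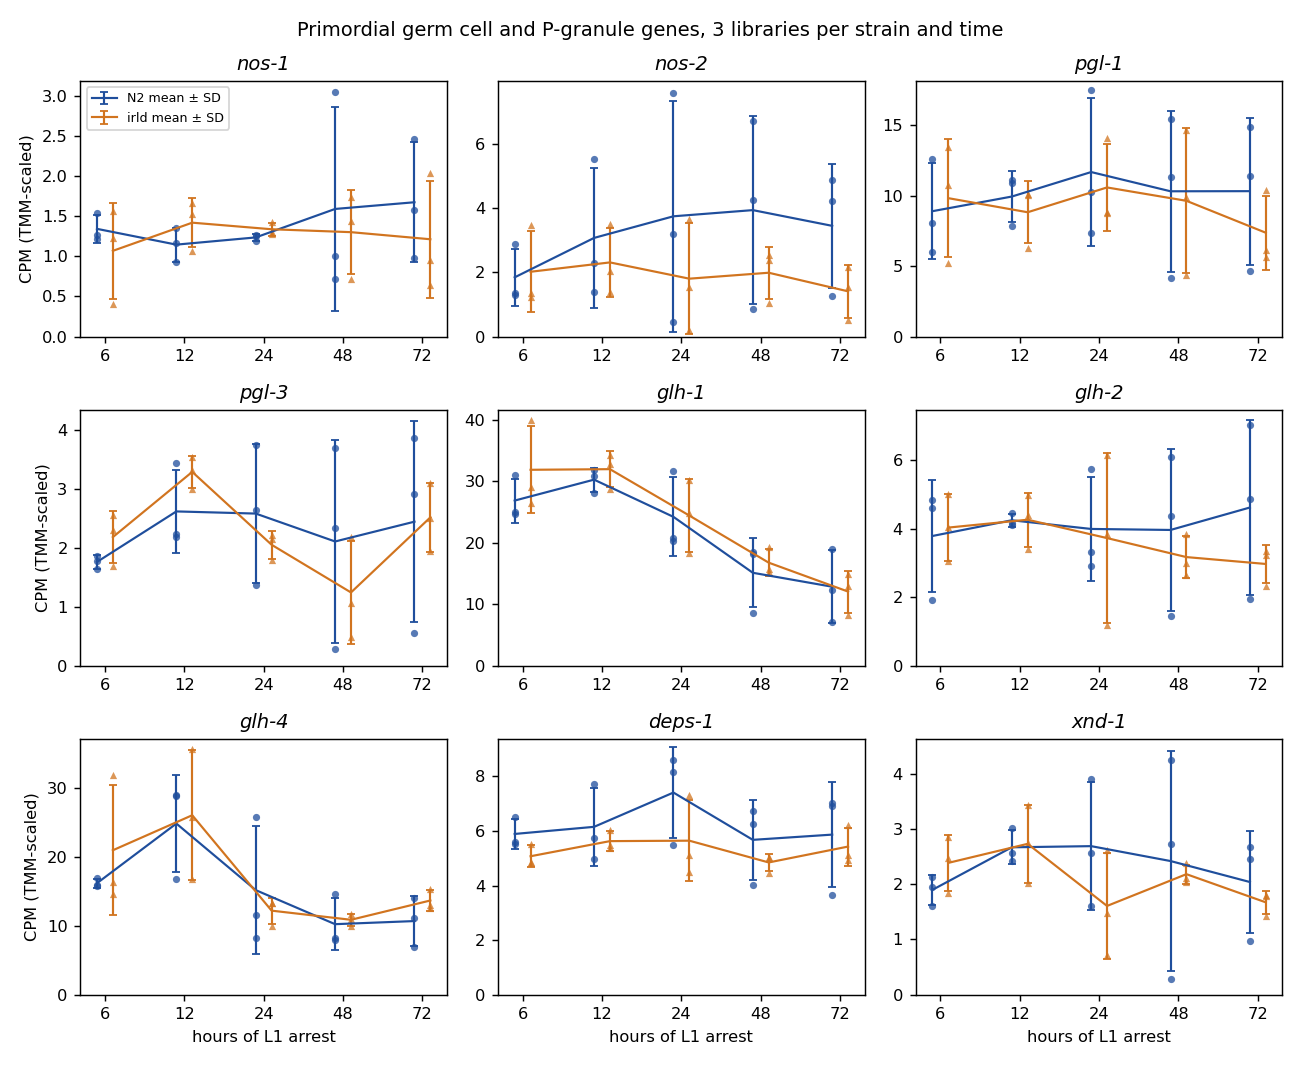
TMM-scaled CPM of each of the 9 genes (vertical axis from 0) against hours of L1 arrest, with 1 point per library, N2 as blue circles, irld as orange triangles, and lines joining group means with SD bars (n = 3). The decline of glh-1 is seen in both strains. The mean of glh-4 is highest at 12 h, where its difference from 6 h was not called. No difference between times was called for the other 7 genes.

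glh-1 (WBGene00001598, chromosome I 6854478 to 6857536, plus strand) encodes the main Vasa-like helicase of P granules. In N2 its 3 libraries stood at 24.7, 24.9 and 31 CPM at 6 h, 28.1, 31.9 and 30.9 at 12 h, 20.2, 31.6 and 20.8 at 24 h, 8.62, 18.2 and 18.5 at 48 h, then 7.15, 12.4 and 19 at 72 h. Every library from 48 or 72 h lay below all 3 libraries from 6 h, while those from 12 and 24 h overlapped them. In N2 2 of 9 genes, glh-1 and glh-4, had all libraries below those of 6 h at 48 h, beside 32.6% of tested genes, and the same 2 had so at 72 h, beside 34.5%. In irld they stood at 29.1, 39.9 and 26.5 CPM at 6 h, 32.9, 34.3 and 28.7 at 12 h, 24.8, 18.3 and 30.1 at 24 h, 19.3, 15.7 and 15.3 at 48 h, then 13, 8.26 and 14.9 at 72 h. The same separation from 6 h was present at 48 and 72 h.

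The N2 mean of glh-1 was 26.9 ± 3.58 CPM at 6 h and 12.8 ± 5.94 CPM at 72 h (SD, n = 3). The irld mean was 31.9 ± 7.10 CPM at 6 h and 12.1 ± 3.43 CPM at 72 h. On the log2 scale the difference at 72 h was -1.06 ± 0.29 in N2 (SE, 95% interval -1.65 to -0.46, edgeR adjusted p = 0.00383), a 2.08-fold lower level. In irld it was -1.40 ± 0.29 (95% interval -2.004 to -0.80, edgeR adjusted p = 0.000345), a 2.64-fold lower level. At 48 h it was already -0.82 ± 0.29 in N2 (edgeR adjusted p = 0.0222) and -0.92 ± 0.29 in irld (edgeR adjusted p = 0.0111). At 12 h it was 0.17 ± 0.28 and 0.005 ± 0.279, and at 24 h -0.15 ± 0.28 and -0.38 ± 0.28, none of them called. The difference between the strains in the change from 6 to 72 h was -0.35 ± 0.41 (95% interval -1.19 to 0.49, edgeR adjusted p = 0.99987), so a steeper fall in irld was not shown.

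For glh-1 the N2 libraries numbered 1 were the lowest of their groups at both late times. Without the one at 72 h, the difference from 6 h was -0.78 (edgeR adjusted p = 0.0333), and without the one at 48 h it was -0.55 and no longer called (edgeR adjusted p = 0.131). The N2 call at 48 h was also lost without any 1 of the 3 libraries at 6 h, at -0.64 to -0.81 (edgeR adjusted p = 0.05004 to 0.124), and the irld call at 48 h without the 6 h library numbered 2, at -0.68 (edgeR adjusted p = 0.1003). The 72 h calls held without any single library. With ERCC spike-in scaling the N2 difference at 72 h was -1.85 and not called (adjusted p = 0.187), and the irld difference was -2.69 (adjusted p = 0.0232).

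glh-4 (WBGene00001601, chromosome I 3727027 to 3731179, plus strand), a more distant relative of glh-1, had its highest mean at 12 h in both strains. In N2 it stood at 15.9, 15.8 and 16.9 CPM at 6 h, 16.7, 29 and 28.9 at 12 h, 8.23, 25.8 and 11.6 at 24 h, 7.91, 8.27 and 14.6 at 48 h, then 6.87, 11.2 and 14.1 at 72 h. In irld it stood at 14.7, 31.9 and 16.4 CPM at 6 h, 16.8, 35.6 and 25.8 at 12 h, 10.0, 13.4 and 13.3 at 24 h, 9.97, 11.8 and 11 at 48 h, then 13.1, 12.6 and 15.4 at 72 h. The N2 libraries at 48 and 72 h lay below those at 6 h without overlap, as did the irld libraries at 24 h (1 of 9 genes, beside 22% of tested genes) and at 48 h (2 of 9 with glh-1, beside 27.1%), and the 12 h libraries overlapped those at 6 h in both strains.

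Over all times glh-4 changed in N2 (edgeR adjusted p = 0.0211) and in irld (edgeR adjusted p = 0.0177). Against 6 h, 1 difference was called, that of irld at 48 h, at -0.95 ± 0.36 (95% interval -1.69 to -0.20, edgeR adjusted p = 0.0373), a 1.93-fold lower level. That call rested on the irld 6 h library numbered 2, at 31.9 CPM the highest of its group: without it the difference was -0.46 (edgeR adjusted p = 0.373). Without any 1 of the 3 irld libraries at 48 h the difference was -0.89 to -1.01, about as large, and not called (edgeR adjusted p = 0.0679 to 0.107). The differences of N2 were 0.62 ± 0.35 at 12 h, -0.65 ± 0.36 at 48 h and -0.59 ± 0.36 at 72 h (edgeR adjusted p = 0.329, 0.147 and 0.180). The calls over all times were lost without the 12 h library numbered 2 or that numbered 3, at an edgeR adjusted p of 0.135 and 0.128 in N2 and of 0.117 and 0.0556 in irld. In N2 the call was also lost without the 48 h and 72 h libraries numbered 1 (edgeR adjusted p = 0.0940).

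glh-2 (WBGene00001599, chromosome I 6513928 to 6517507, plus strand), the closest relative of glh-1 in this set, had group means of 3.79 to 4.62 CPM in N2 and of 2.97 to 4.26 CPM in irld. Its largest difference from 6 h was -0.43 ± 0.49 at 72 h in irld (95% interval -1.44 to 0.57, edgeR adjusted p = 0.489). At 72 h in N2 it was 0.32 ± 0.48 (95% interval -0.66 to 1.31). These intervals include a 2-fold fall in irld and a 2-fold rise in N2. Reads of the related glh genes, and those of the related pgl genes, could have been shared or dropped where their sequences match.

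For the PGL scaffold genes no difference between times passed the test. pgl-1 (WBGene00003992, chromosome IV 6974441 to 6977318, minus strand) had N2 libraries at 8.05, 6.01 and 12.6 CPM at 6 h, 11.1, 7.83 and 10.9 at 12 h, 7.31, 10.2 and 17.5 at 24 h, 4.17, 11.3 and 15.5 at 48 h, then 4.63, 11.4 and 14.9 at 72 h. In irld they were at 13.5, 10.8 and 5.23 CPM at 6 h, 10.1, 10.1 and 6.29 at 12 h, 8.83, 8.79 and 14.1 at 24 h, 14.6, 9.93 and 4.33 at 48 h, then 10.4, 6.11 and 5.62 at 72 h. Every group of pgl-1 overlapped its 6 h group. The difference between 72 h and 6 h was 0.24 ± 0.48 in N2 and -0.41 ± 0.49 in irld (edgeR adjusted p = 0.705 and 0.511).

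pgl-3 (WBGene00003994, chromosome V 4755979 to 4758587, plus strand) had group means of 1.76 to 2.62 CPM in N2 and of 1.246 to 3.30 CPM in irld. Its 3 libraries at 12 h lay above those at 6 h in both strains, with means of 2.62 against 1.76 CPM in N2 and of 3.30 against 2.19 CPM in irld. These differences, 0.58 ± 0.54 and 0.59 ± 0.53, were not called (edgeR adjusted p = 0.594 and 0.605). In N2 2 of 9 genes, pgl-3 and xnd-1, had all 12 h libraries above all 6 h libraries, as did 14.7% of tested genes, and in irld 1 of 9, beside 8.15%. The N2 libraries numbered 1 were at 0.287 CPM at 48 h and 0.561 CPM at 72 h, beside 2.35 to 3.87 CPM in the other 4 libraries of these times.

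deps-1 (WBGene00022034, chromosome I 506473 to 509056, plus strand) had the smallest SD over the 30 libraries relative to its mean of the 9 genes. It ranged from 3.65 to 8.59 CPM over the 30 libraries, with group means of 5.68 to 7.41 CPM in N2 and of 4.85 to 5.65 CPM in irld. Its difference between 72 h and 6 h was 0.001 ± 0.248 in N2 (95% interval -0.51 to 0.51) and 0.10 ± 0.25 in irld (95% interval -0.42 to 0.61), so both intervals lay within a 2-fold change. The largest difference from 6 h was 0.33 ± 0.24 at 24 h in N2 (edgeR adjusted p = 0.311).

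**Figure D2:**
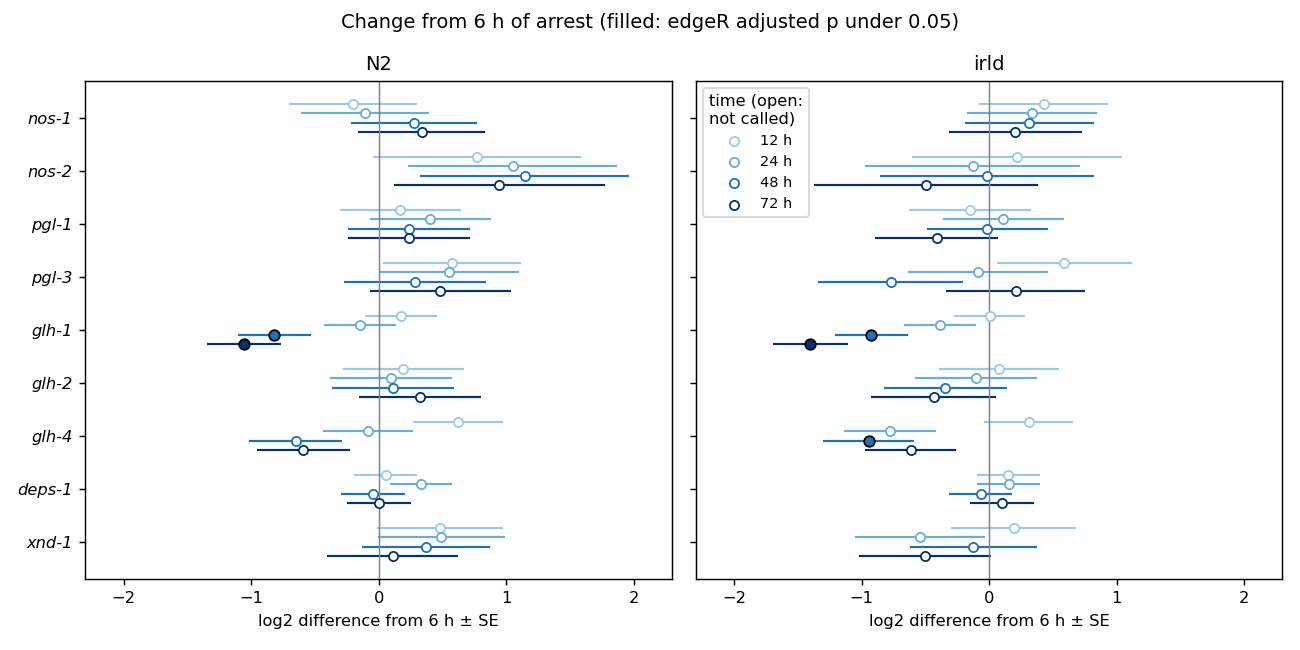
Log2 difference of each later time from 6 h of arrest, with SE, for the 9 genes in N2 (left) and irld (right), from light (12 h) to dark blue (72 h). Filled symbols mark an edgeR adjusted p under 0.05: glh-1 at 48 and 72 h in both strains and glh-4 at 48 h in irld.

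The Nanos genes differed in level and in spread. nos-2 (WBGene00003784, chromosome II 7065618 to 7067051, plus strand) had N2 libraries at 1.36, 1.31 and 2.87 CPM at 6 h, 1.39, 2.29 and 5.54 at 12 h, 0.457, 3.20 and 7.58 at 24 h, 0.862, 6.71 and 4.25 at 48 h, then 1.26, 4.86 and 4.22 at 72 h. In irld they were at 3.47, 1.23 and 1.36 CPM at 6 h, 3.50, 1.40 and 2.03 at 12 h, 1.55, 3.65 and 0.212 at 24 h, 2.38, 1.06 and 2.53 at 48 h, then 0.519, 2.16 and 1.55 at 72 h. The spread within groups was as large as any difference between them, and each later group overlapped that at 6 h. The differences from 6 h were 0.77 to 1.15 in N2 and -0.49 to 0.22 in irld, with SEs of 0.82 to 0.88, and none was called (lowest edgeR adjusted p = 0.262).

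nos-1 (WBGene00003783, chromosome II 10951592 to 10953165, minus strand) had group means of 1.15 to 1.67 CPM in N2 and of 1.07 to 1.42 CPM in irld. At 24 h its libraries lay close together, at 1.26, 1.19 and 1.26 CPM in N2 and 1.43, 1.31 and 1.27 CPM in irld, and at 48 h in N2 they lay at 0.719, 1.01 and 3.05 CPM. Its difference between 72 h and 6 h was 0.34 ± 0.50 in N2 and 0.20 ± 0.52 in irld (edgeR adjusted p = 0.591 and 0.773).

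xnd-1 (WBGene00001514, chromosome III 5604460 to 5607556, plus strand) had group means of 1.90 to 2.69 CPM in N2 and of 1.61 to 2.73 CPM in irld. In irld its 72 h libraries, at 1.43, 1.80 and 1.79 CPM, lay just below those at 6 h, at 2.48, 2.85 and 1.83 CPM, a difference of -0.50 ± 0.52 that was not called (edgeR adjusted p = 0.442). Along with glh-1 this made 2 of 9 genes whose irld libraries at 72 h lay below all 6 h libraries, beside 28.9% of tested genes. In N2 the difference was 0.11 ± 0.51 (edgeR adjusted p = 0.877).

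The annotation places exons of other genes on the opposite strand over 154 exon bases of nos-2 (him-14), 109 of deps-1 (Y65B4BL.7), 48 of xnd-1 (C05D2.8) and 12 of nos-1 (gst-5). Whether the counting used strand is not given in the sources used here, so reads of those stretches could have been assigned to either gene or dropped. No such overlap was found for the pgl and glh genes.

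The second question of the design was whether the mutant differed from N2. No difference between the strains was called for any of the 9 genes, at any single time, as a mean over the 5 times or as a change over time, and edgeR called 0 of 15508 genes in each of these comparisons (percent called 0). For the mean over the 5 times, 0 of the 9 had an unadjusted p under 0.05, beside 837 of all tested genes, and DESeq2 and limma-voom also called 0 of the 9. For 8 of the 9 genes the 95% interval of the mean difference lay within a 2-fold change, the exception being nos-2. The largest differences, irld less N2, were -0.71 ± 0.37 for nos-2 (95% interval -1.48 to 0.06) and -0.22 ± 0.11 for deps-1 (95% interval -0.45 to 0.01). The edgeR adjusted p was 0.942 for both. The other 7 lay between -0.19 and 0.11, glh-1 at 0.08 ± 0.13 (95% interval -0.19 to 0.34) and glh-4 at 0.11 ± 0.16.

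nos-2 was lower in irld on average at 12, 24, 48 and 72 h, by -0.40 ± 0.81, -1.02 ± 0.83, -1.01 ± 0.83 and -1.28 ± 0.87 on the log2 scale, and at 6 h the difference was 0.16 ± 0.83. The strains overlapped at each time. Its mean difference depended on the libraries numbered 3, without which it was -0.12, and was -1.247 without those numbered 1 (edgeR adjusted p = 0.957 and 0.247). Among the 9 genes and 5 times, the libraries of the strains did not overlap in 2 cases: deps-1 was lower in irld at 6 h, beside 2.02% of tested genes, and nos-1 was higher in irld at 24 h, beside 2.72%. Both gaps were very narrow. For deps-1 the highest irld library was at 5.5399 CPM and the lowest N2 library at 5.5435 CPM. For nos-1 the highest N2 library was at 1.2637 CPM and the lowest irld library at 1.2735 CPM. In the authors' deposited table of the joint test over the 5 times, the FDR was 0.99996 for each of the 9 genes and the lowest p was that of nos-2, at 0.351. The log2 fold changes of nos-2 in the authors' deposited table were 0.19, -0.39, -1.05, -1.05 and -1.30 from the first time to the last.

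**Figure D3:**
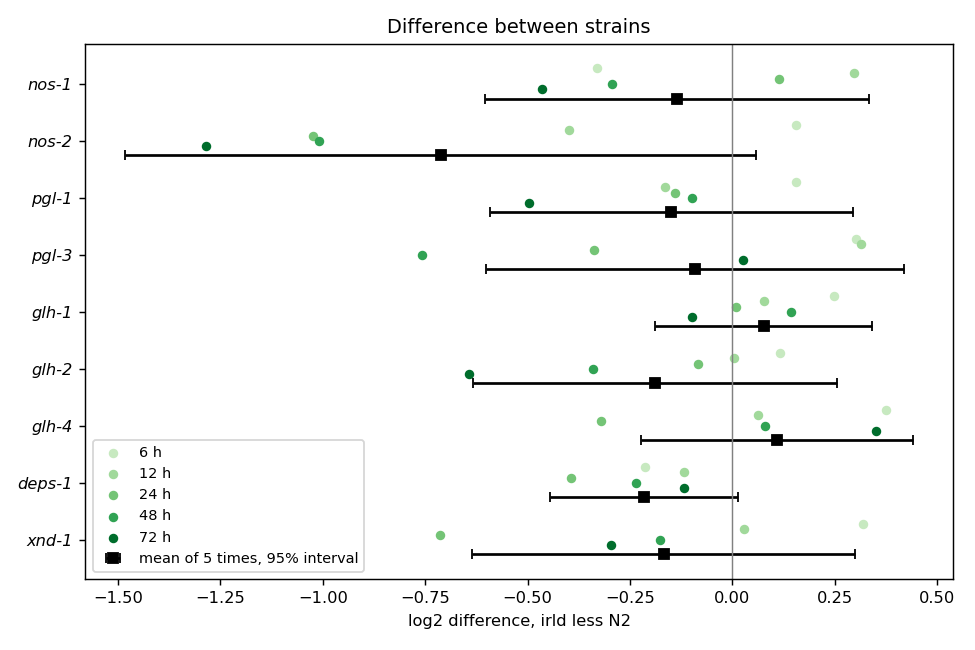
Log2 difference between strains, irld less N2, for the 9 genes, with the 5 single times as green points (darker for later) and the mean over the 5 times as a black square with its 95% interval. Each interval includes 0, and that of nos-2 is the widest, from -1.48 to 0.06.

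In some groups, most clearly N2 at 24, 48 and 72 h, the libraries differed along a shared direction. In N2 at 48 h the library numbered 1 was the lowest of the 3 for 9 of 9 genes, with a summed level of 28.3 CPM beside 62.7 and 75.2 CPM, and at 72 h the library numbered 1 was again lowest for 9 of 9, at 28.04 CPM beside 58.8 and 75.1 CPM. The same libraries were the lowest of the 3 for 12 of 12 and 11 of 12 markers of early embryos and maternal RNA. Their summed marker level was 108 CPM beside 341 and 285 CPM at 48 h, and 161 CPM beside 302 and 251 CPM at 72 h. At 24 h the N2 library numbered 1 was lowest for 7 of 9 genes and 11 of 12 markers, with summed markers at 129 CPM beside 326 and 362 CPM. The summed level of 8 genes of meiosis was also lowest in the N2 libraries numbered 1 at 24, 48 and 72 h, at 16.5, 12.9 and 15.7 CPM. The other N2 libraries of these times were at 25.6 to 43.4 CPM.

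In irld the library lowest for most markers was not always the one lowest for most of the 9 genes. At 6 h the library numbered 3 was lowest for 6 of 9 genes and 11 of 12 markers, but at 48 h the library numbered 2 was lowest for 1 of 9 genes and 10 of 12 markers. Over all groups the summed markers ranged from 108 to 362 CPM in N2 and from 120 to 269 CPM in irld, and the strain mean of the 12 markers had a median log2 difference of -0.43 in irld, with 0 called and 3 at an unadjusted p under 0.05. The part of these transcripts in the levels of nos-2 and of the other genes was not tested. With both N2 libraries numbered 1 at 48 and 72 h left out, a choice made after the data were seen, the glh-1 difference in N2 was -0.78 at 72 h (edgeR adjusted p = 0.0154) and -0.55 at 48 h, where it was not called (edgeR adjusted p = 0.0808). With all libraries numbered 1 left out it was -0.73 at 72 h and not called (edgeR adjusted p = 0.0583). The summed markers in N2 at 72 h, 161 to 302 CPM, overlapped those at 6 h, 216 to 288 CPM. In irld they did not overlap, at 156 to 199 CPM at 72 h against 200 to 258 CPM at 6 h. Between 6 and 72 h the median log2 differences of the marker lists went both ways. They were 1.07 in N2 and 0.29 in irld for the adult germ line, sperm, oocyte and yolk list. For the embryo and maternal list they were 0.42 and -0.20, and for 8 genes of meiosis 0.11 and -0.05. The 14 markers of the L1 body had a median log2 difference between 72 h and 6 h of -0.64 in N2 and -0.71 in irld, although their summed level, 16473 to 18876 CPM in N2 and 14950 to 19624 CPM in irld at 72 h, overlapped that at 6 h, 12391 to 18049 and 13306 to 17145 CPM. The largest part of this sum was unc-54, with means at 6 and 72 h of 7228 and 12896 CPM in N2 and 7786 and 12641 CPM in irld. The 4 tested markers of somatic gonad precursors had medians of -1.41 and -0.85. The summed level of all 5 was 24.7 to 29.6 CPM at 72 h against 35.4 to 41.8 CPM at 6 h in N2, and 26.3 to 28.8 against 37.2 to 42.8 CPM in irld. Most of this sum was tra-1 and lim-7. At 6 and 72 h tra-1 had means of 21.3 and 21.7 CPM in N2 and 23.5 and 20.7 CPM in irld. The means of lim-7 were 13.5 and 4.79 CPM in N2 and 14.5 and 5.47 CPM in irld. Over the 30 libraries ehn-3, hnd-1 and lag-2 had medians of 0.115, 0.392 and 1.06 CPM. The part of these marker lists in the change of glh-1 was not tested.

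**Figure D4:**
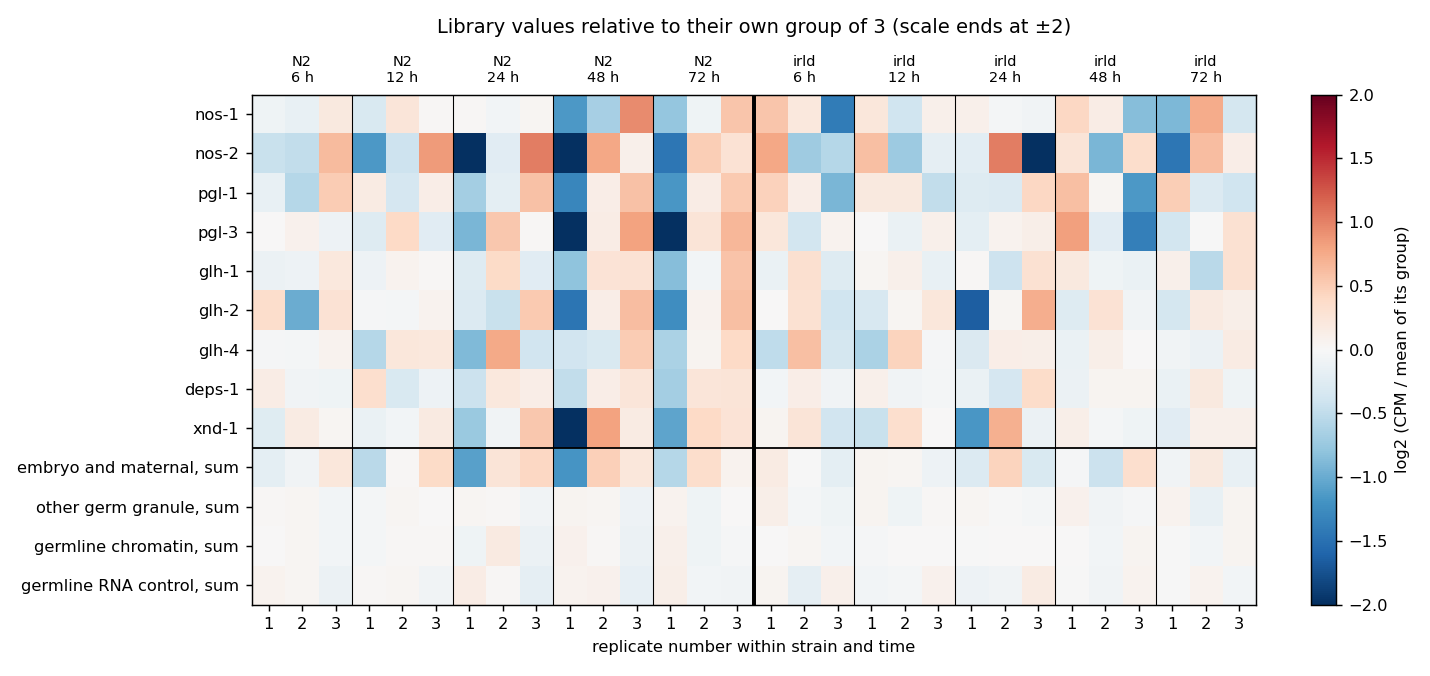
Level of each of the 9 genes (upper rows) and summed level of 4 gene lists (lower rows) in the 30 libraries, as log2 of CPM over the mean of the library's own group of 3, blue for lower and red for higher. The N2 columns numbered 1 at 48 and 72 h are blue for all 9 genes and for the embryo and maternal sum, while the sums of the 3 lists of other germline genes stay close to their group means. A sum weighs each gene by its level, so genes with low levels count little in it.

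**Figure D5:**
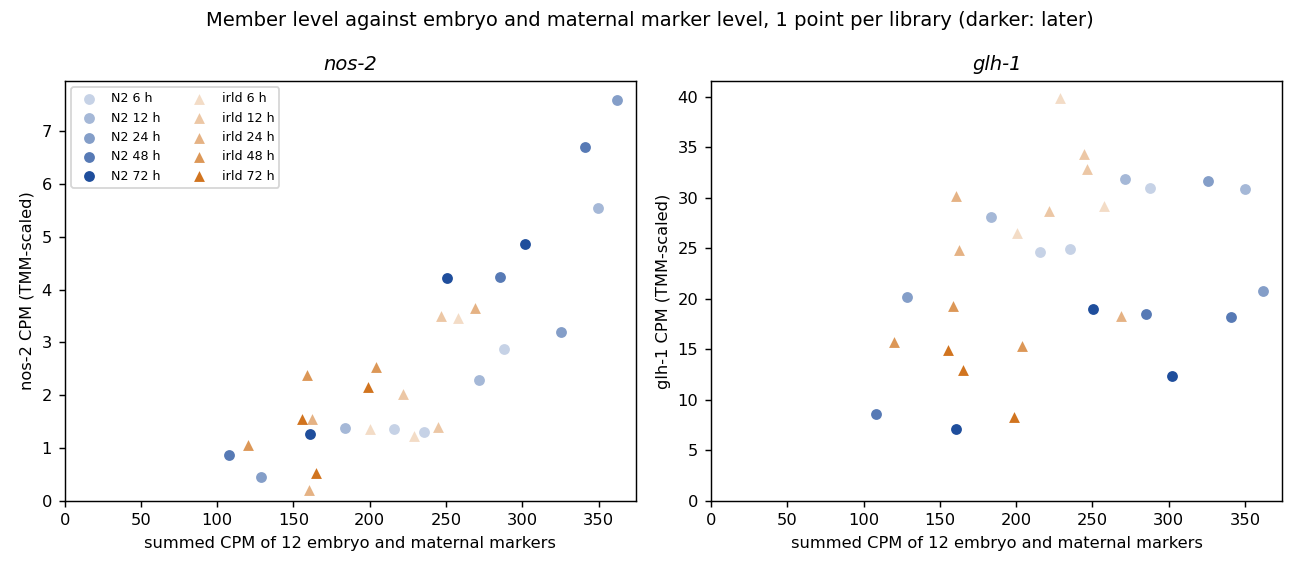
Level of nos-2 (left) and glh-1 (right) in CPM against the summed CPM of 12 embryo and maternal markers, with 1 point per library, N2 as blue circles and irld as orange triangles, darker for later times. The library highest in nos-2, at 7.58 CPM, also had the highest summed markers, 362 CPM. The 72 h libraries lie at 7.15 to 19 CPM of glh-1, at summed markers of 156 to 302 CPM, and overlap those of 48 h.

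The genes whose group means were most like each gene were sought among 7288 named genes whose mean reached 2 CPM, by Pearson's r of mean log2 levels over the 10 groups. These are descriptions of 10 points that share libraries and time, and the highest of many values. For nos-2 they were sun-1, a nuclear envelope protein of the germ line (r = 0.917), and pie-1, a maternal germline zinc-finger factor that is also among the embryo markers (r = 0.903). For glh-1 they were haf-9 (r = 0.993), a half-molecule ABC transporter of gut granules, and rhi-1 (r = 0.993). For glh-4 they were zyg-9 (r = 0.978), a microtubule-associated protein of the early spindle, and disl-2 (r = 0.972). For deps-1 they were dsb-1 (r = 0.840), a gene for meiotic double-strand breaks, and the embryo marker mex-1 (r = 0.793). For pgl-1 they were hpl-2 (r = 0.909), an HP1 chromatin protein, and dnj-17 (r = 0.888), and for pgl-3 mut-7 (r = 0.883), of the mutator small-RNA pathway, and dhrr-1 (r = 0.870). The values for glh-2 were 0.926 (rmd-1) and 0.905 (mcp-1), for xnd-1 0.885 (nprt-1) and 0.882 (cfim-1), and for nos-1 0.739 (arf-6) and 0.723 (set-26).

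The 9 genes were set beside 3 lists of other germline genes. These were chosen for their known roles, but with earlier results of these data known, so their counts are descriptions. Of 22 other genes of P granules and neighbouring germ granules, 5 rose and 0 fell between 6 and 72 h in N2, and 4 rose and 0 fell in irld, beside 23.1% higher and 27.9% lower over all tested genes in N2 and 20.6% and 26% in irld. Their median log2 difference was 0.07 in N2 and 0.08 in irld, beside -0.11 and -0.13 over all tested genes. ife-1, an eIF4E translation factor of P granules, rose from 99.7 ± 7.66 to 341 ± 22.8 CPM in N2 and from 106 ± 8.996 to 295 ± 58.3 CPM in irld (SD, n = 3), with log2 differences of 1.77 ± 0.15 and 1.47 ± 0.15 (edgeR adjusted p = 4.95e-10 and 1.18e-08). car-1, an RNA-binding protein of germline granules, rose by 1.42 ± 0.12 in N2 and 1.43 ± 0.12 in irld. prmt-5, an arginine methyltransferase, rose by 1.32 ± 0.22 and 1.17 ± 0.21. pgl-2, the third PGL gene, rose from 2.01 ± 0.298 to 4.12 ± 0.596 CPM in N2 and from 2.19 ± 0.550 to 4.19 ± 1.37 CPM in irld (edgeR adjusted p = 0.0102 and 0.0211). Several of these genes are also expressed outside the germ line.

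Of 18 germline chromatin genes, 3 rose and 4 fell in N2 and 3 rose and 6 fell in irld, with median log2 differences of -0.05 and -0.16. Beside these, 23.1% of all tested genes were higher and 27.9% lower in N2, and 20.6% and 26% in irld. Their medians were -0.11 and -0.13. met-1, a histone methyltransferase, rose by 1.12 ± 0.14 in N2 and 1.03 ± 0.14 in irld, and him-17, a chromatin factor of meiosis, by 0.78 ± 0.11 and 0.85 ± 0.11. mrg-1, a chromodomain protein needed by primordial germ cells, fell from 45.3 ± 6.74 to 20.8 ± 3.15 CPM in N2 and from 37.9 ± 5.69 to 24.2 ± 4.44 CPM in irld (edgeR adjusted p = 0.000497 and 0.0323). utx-1, a histone demethylase, fell with log2 differences of -0.89 ± 0.17 and -0.47 ± 0.16.

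Of 22 tested genes of germline RNA control, 3 rose and 4 fell in N2 and 2 rose and 4 fell in irld, with median log2 differences of -0.19 and -0.19. The shares of all tested genes were 23.1% higher and 27.9% lower in N2, and 20.6% and 26% in irld, with medians of -0.11 and -0.13. fbf-2, a PUF protein that keeps germline stem cells, fell from 8.32 ± 1.71 to 1.97 ± 0.935 CPM in N2 and from 6.55 ± 1.59 to 2.07 ± 0.722 CPM in irld (edgeR adjusted p = 0.000165 and 0.00158). In N2 its log2 difference was already -2.86 ± 0.43 at 24 h. gld-2, a cytoplasmic poly(A) polymerase, rose by 0.85 ± 0.19 in N2 and 0.87 ± 0.19 in irld, and pup-2, a poly(U) polymerase, by 0.91 ± 0.14 and 0.86 ± 0.14, while gld-4, another poly(A) polymerase, had -0.61 ± 0.15 and -0.38 ± 0.15, both called. The mean difference between strains was called for 0 of the 62 genes of these lists.

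The counts of rises and falls in these lists depended on the scaling. Library size alone put the median of all tested genes at -0.63 in N2 and -0.59 in irld between 6 and 72 h. With it 1927 of 15508 tested genes were higher and 7214 lower in N2. The granule list then had 3 higher and 7 lower in N2, the chromatin list 2 and 11, and the RNA control list 1 and 8. With ERCC scaling the medians were -0.57 and -1.58, and 171 of 15508 genes were higher and 1702 lower in N2. The lists then had 0 and 0, 0 and 0, and 0 and 1 in N2. With the same scalings, nos-1, pgl-1, pgl-3, glh-2, deps-1 and xnd-1 had negative differences at 72 h in N2 in place of positive ones, none of them called, whereas glh-1 was lower with each scaling.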

How the data were processed

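TRIzol was used to extract RNA and NEBNext Ultra II to make polyA libraries from 50 ng each, per the labels' protocols. ERCC spike-in was dosed by total RNA and so cannot report RNA per animal. The authors aligned 50 bp paired-end reads with bowtie 1.2.2 to the WS273 genome with 92 ERCC sequences, dropping reads with more than 2 alignments, and counted them with HTSeq 0.11.2, per the file headers and the submitters' processing notes; its settings are not given in the sources used here. Between 35.3% and 40.7% of reads were not aligned, and rows that name no gene held 38.7% to 43.5% of reads and stayed out of library sizes. The authors deposited raw counts for each gene, and the 30 sample files held the values of the series table. The deposited CPM values, scaled by the authors, were not used for tests. The authors' deposited table gives log2 fold changes, an F score, a p-value and an FDR from edgeR 3.24.4, run on genes over 1 CPM in 3 or more libraries.

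All else was computed here from the counts with R 4.3.3, edgeR 4.0.16 (TMM factors 0.781 to 1.24, filterByExpr by group, robust quasi-likelihood F-tests, 1 coefficient for each of 10 groups, Benjamini-Hochberg over 15508 genes, threshold 0.05, biological coefficient of variation 0.256), limma 3.58.1, DESeq2 1.42.0 and Python 3.11.15. Depth was 7563687 to 19815884 reads on worm genes. Coordinates and exon lengths are those of Ensembl 115 on WBcel235, whose gene models may differ from WS273; 44053 of 46911 identifiers had a name. The fit was also run on simulated counts, with the same dispersion for all genes and no shared deviation of same-numbered libraries. That run does not speak to genes with a larger spread, such as nos-2.

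The members and lists were chosen with earlier results of these data known. The 9 genes are always named, as are up to 4 genes of each list with the smallest p over all times in N2, and the 2 genes most like each member. In the list of 23 RNA control genes, 1 name was not matched. Alternatives were other scalings, filters, tools and sample sets, a replicate block, and leaving out libraries.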

Additional observations from a re-analysis of the deposited data

How the results depend on the processing

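Counts as low as 2 to 5 reads in a library limit nos-1, nos-2, pgl-3 and xnd-1, and the spread within groups limits nos-2, whose SEs were 0.82 to 0.88. The alternatives were other scalings (RLE, upper quartile, library size alone, ERCC spike-in), no filter or a stricter one, DESeq2, limma-voom, only the groups compared, a replicate block and leaving out libraries. The count of members called stayed at 0 for N2 at 12 and 24 h, irld at 12 h and the strain comparisons under each alternative run for them, where the mean over times and the strain by time test were not run with only the groups compared. ERCC scaling rests on 0.304% to 3.88% of counts per library. Within each group this share was lowest in the library numbered 1, so ERCC scaling varies with the replicate number. At 72 h the libraries in order of number were at 0.441%, 3.20% and 2.14% in N2, and at 0.603%, 3.88% and 3.16% in irld. The cause of the changes below was not tested.

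For N2 at 48 h the count of 1 became 0 with upper quartile or ERCC scaling, with only the groups compared and without the N2 48 h and 72 h libraries numbered 1 (an alternative added after the data were seen), and 2 with library size alone. For N2 at 72 h the count of 1 became 2 with library size alone and 0 with ERCC scaling. Over all times in N2 the count of 2 became 0 with ERCC scaling, and 1 with only the groups compared or without those libraries. Over all times in irld it became 1 with ERCC scaling or no filter. For irld at 24 h the count of 0 became 1 with library size alone. For irld at 48 h the count of 2 became 1 with upper quartile scaling, no filter, limma-voom or only the groups compared, and for irld at 72 h the count of 1 became 2 with library size alone and with ERCC scaling, where nos-2 was at -3.11 (adjusted p = 0.0167). Of the lists in N2 at 72 h, the 5 granule genes called became 10 with library size alone and 0 with ERCC scaling, the 7 chromatin genes 13 and 0, and the 7 RNA control genes 1 with ERCC scaling. Of all 15508 tested genes, 3588 were called higher and 4331 lower there with TMM scaling. These became 1927 and 7214 with library size alone, and 171 and 1702 with ERCC scaling.

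Leaving out libraries gave counts of 0 to 1 for N2 at 48 h, 1 to 1 for N2 at 72 h, 0 to 2 over all times in N2, 0 to 3 over all times in irld, 0 to 3 for irld at 48 h, 0 to 1 for irld at 72 h and 3 to 7 for the granule list. At 72 h, glh-1 ranged between -1.45 and -0.73 for N2 and between -1.64 and -0.95 for irld. It was not called without all libraries numbered 1 in N2 (-0.73, adjusted p = 0.0583) or all numbered 2 in irld (-0.95, adjusted p = 0.0689). Without all libraries numbered 1, pgl-3 was called at 72 h in N2 (1.03, edgeR adjusted p = 0.0422).

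Differences that changed sign were uncalled. At 72 h in N2, library size alone gave -0.17 for nos-1, -0.28 for pgl-1, -0.013 for pgl-3, -0.19 for glh-2, -0.51 for deps-1 and -0.39 for xnd-1. ERCC scaling gave -0.50 for nos-1, -0.10 for nos-2, -0.73 for pgl-1, -0.73 for pgl-3, -0.84 for glh-2, -0.84 for deps-1 and -0.79 for xnd-1, and deps-1 was -0.045 with no filter and -0.021 with limma-voom. At 72 h in irld, library size alone and ERCC scaling gave -0.24 and -2.07 for nos-1, -0.24 and -1.56 for pgl-3, and -0.37 and -1.39 for deps-1. For the strain mean, ERCC scaling gave 0.18 for nos-1, 0.36 for pgl-1, 0.38 for pgl-3, 0.034 for deps-1 and 0.11 for xnd-1, limma-voom gave 0.026 for pgl-3, and leaving out the N2 48 h and 72 h libraries numbered 1 gave -0.034 for glh-1. At 12 h in irld, glh-1 was -0.089 with library size alone, -0.87 with ERCC scaling and -0.0063 with no filter, and glh-4 was -0.46 with ERCC scaling. glh-4 at 24 h in N2 was 0.034 with upper quartile scaling.

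Leaving out libraries gave, at 72 h in N2, -0.051 to 0.67 for nos-1, -0.13 to 0.63 for pgl-1, -0.0051 to 1.03 for pgl-3, -0.11 to 1.03 for glh-2, -0.15 to 0.42 for deps-1 and -0.13 to 0.42 for xnd-1. At 72 h in irld it gave -0.39 to 0.94 for nos-1, -1.15 to 0.57 for nos-2 and -0.019 to 0.21 for deps-1. For the strain mean it gave -0.40 to 0.31 for nos-1, -0.56 to 0.32 for pgl-1, -0.49 to 0.12 for pgl-3, -0.12 to 0.18 for glh-1, -0.00089 to 0.23 for glh-4 and -0.33 to 0.018 for xnd-1. It gave -0.39 to 0.14 for glh-1 and -0.68 to 0.28 for glh-4 at 24 h in N2, and -0.11 to 0.22 at 12 h and -0.61 to 0.0094 at 24 h for glh-1 in irld.

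The libraries share replicate numbers that the labels do not tie to a batch. Over 11583 genes, 135 same-numbered pairs of libraries had correlations of -0.51 to 0.70 in their deviations from group means (median 0.17), 89 of them over 0.1, and 21 of 30 libraries were closest to their own number. With the number as a replicate block the count of members became 2 for N2 at 48 h and 1 for irld at 24 h, glh-4 in both, and deps-1 at 72 h in N2 was -0.019. Over all tested genes the block moved the calls at 12 h from 963 to 1550 in N2 and from 673 to 1157 in irld, and changed no strain count.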

Other observations

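Genes of other gonadal cells and stages were read from lists of markers. Of the 5 markers of somatic gonad precursors, the cells that enclose the primordial germ cells, 4 were tested and 2 of them were lower at 72 h than at 6 h in N2 and 1 in irld (edgeR, adjusted p under 0.05), and ehn-3, a zinc-finger gene of these cells, was at 0 counts in 11 of 30 libraries. Of 8 genes of meiosis, all with a median above 1 CPM, 1 was higher and 1 lower in N2, and 1 was higher in irld. Of 12 markers of the adult germ line, sperm, oocytes and yolk, 7 were tested and 0 were called in either strain, with 0 at an unadjusted p under 0.05. Of the 14 markers of the L1 body, 1 was higher and 7 lower in N2, and 1 higher and 8 lower in irld. Over all tested genes 23.1% were higher and 27.9% lower in N2, and 20.6% and 26% in irld. The median log2 differences were -0.64 and -0.71 for the L1 body and -1.41 and -0.85 for the somatic gonad precursors, beside -0.11 and -0.13 over all tested genes. For the adult list they were 1.07 and 0.29, for meiosis 0.11 and -0.05, and for embryo and maternal RNA 0.42 and -0.20. Of the 12 markers of early embryos and maternal RNA, 1 was lower in each strain.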
